A study of Homo sapiens with 14 samples.

Results

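The change that a bait makes, the log2 ratio of a message in the immunoprecipitate (IP) to the same message in its input, was compared between 2 subunits of the ER membrane protein complex (EMC). For each gene the change in the EMC10 line was subtracted from the change in the EMC6 line, over 10 of the 14 libraries of the series: 4 from the EMC6 line (2 inputs and 2 IPs) and 6 from the EMC10 line (3 inputs and 3 IPs). This difference of changes is the sum of an IP part, EMC6 IPs over EMC10 IPs, and the negative of an input part, EMC6 inputs over EMC10 inputs, so that each difference can be placed in the IPs, in the inputs or in both. Of 19440 symbols, 9456 had enough counts to be tested, after the rows of EMC6 and EMC10, which hold the baits themselves, were set apart.

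The EMC is a conserved complex of the endoplasmic reticulum (ER) membrane that inserts transmembrane helices, among them those of tail-anchored proteins and the N-terminal helices of many multi-pass proteins. EMC6 is a small subunit embedded in the membrane core, whereas EMC10 is built around a domain in the ER lumen and is anchored by a transmembrane helix. When ribosomes are isolated through a tagged subunit, the messages enriched over the input are those whose ribosomes stay bound to that subunit, directly or through the rest of the complex and the membrane fragment around it.

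All cells were Flp-In T-REx 293 cells, a HEK293 human embryonic kidney line made for inducible transgenes. The EMC6 line was an EMC6 knockout that expressed 3Flag-EMC6 under doxycycline, and the EMC10 line expressed 3Flag-EMC10 under doxycycline, with no knockout named in the labels. Genotype and bait therefore cannot be told apart. Both lines received 0.5 to 1.0 ng/mL doxycycline for 72 h and were grown in 10 dishes per sample. Microsomes were treated with micrococcal nuclease and solubilized (the input), and the IP was what M2 Flag beads retained; no line without a tagged bait entered the comparison. RNase footprints of both fractions were then sequenced. Of 10 HEK293 markers, 7 had at least 10 counts in the inputs of both lines. Their summed level was 265 to 309 CPM in EMC6 inputs and 216 to 252 CPM in EMC10 inputs, and PAX8 and PHOX2A were at 0 in both. Of 16 markers of other cells only LRP2, an endocytic receptor of the kidney tubule, reached 10 counts, and 12 and 11 were at 0. The sum of these 16 was 312 to 369 CPM and 469 to 578 CPM, nearly all of it LRP2.

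Counts on genes came to 1692490 to 1835892 in the EMC6 inputs and 515302 to 960279 in the EMC6 IPs, against 2907065 to 3371471 and 1335235 to 1784496 in the EMC10 libraries. The EMC6 line is thus the less deeply sequenced and has 1 pair of libraries fewer, so its spread limits the comparison. Its libraries also stood apart in other ways. Reads on no gene were 9.28% to 12.5% in EMC6 libraries and 2.83% to 5.15% in EMC10 libraries. Replicates differed by a chi-square per degree of freedom of 7.74 for EMC6 inputs and 3.93 for EMC6 IPs, against 1.91 to 3.04 in the EMC10 line. The part of these differences in the results was not tested. LSM4 and MAP4 together took 5.38% and 7.36% of the counts in EMC6 inputs and 11.3% and 13.4% in EMC6 IPs, but at most 0.0209% in any EMC10 library. EMC10 itself took 24.6% to 26.1% of the counts in EMC10 IPs. Values below are CPM (counts scaled to the library total and normalised with TMM factors) and log2 values ± SE from 1 fit over all libraries.

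The change was larger with EMC6 than with EMC10 for 5 messages and larger with EMC10 for 0 (edgeR's quasi-likelihood test, Benjamini-Hochberg adjusted p under 0.05), which is 0.0529% and 0% of the 9456 genes tested. The 5 messages were SLC12A2, MAP4, ASB13, LSM4 and CYB561D2. At an unadjusted p under 0.05 there were 379 and 209, and DESeq2 called 7 and 0. Without the second EMC6 input library the count larger with EMC6 was 225, and without the first EMC6 IP library it was 15; leaving out any other single library gave 5, though without the second EMC6 IP library TMEM179B took the place of CYB561D2. Without that IP library 1 message, YIPF4, was larger with EMC10. When each IP was paired with the input of its own replicate number, as the labels allow, 177 and 32 messages passed (1.87% and 0.338%), and these are described further down.

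SLC12A2 encodes NKCC1, the Na-K-Cl cotransporter of the plasma membrane (chromosome 5, 128083766 to 128189677, GRCh38). Its footprints stood at 256 and 342 CPM in EMC6 inputs and 11100 and 11940 CPM in EMC6 IPs, against 616, 680 and 722 CPM in EMC10 inputs and 5990, 5939 and 6750 CPM in EMC10 IPs. Both fractions separated the lines without overlap, and in opposite directions: higher in every EMC6 IP and lower in every EMC6 input. The IP part was 0.89 ± 0.14 (adjusted p = 1.01e-05) and the input part -1.17 ± 0.15 (adjusted p = 2.21e-07), giving a difference of 2.06 ± 0.21 (adjusted p = 2.37e-08; 95% interval 1.64 to 2.47). It lies in both fractions. In the single pairs the change was 5.43 and 5.12 with EMC6 and 3.28, 3.13 and 3.22 with EMC10.

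CYB561D2 encodes a small multi-pass protein of the cytochrome b561 family (chromosome 3, 50350862 to 50354069). It had the same pattern at a much lower level: 14.1 and 19.9 CPM in EMC6 inputs, 95.4 and 118 CPM in EMC6 IPs, 30.4, 30.6 and 37.5 CPM in EMC10 inputs and 48.2, 57.3 and 80.3 CPM in EMC10 IPs. The groups did not overlap in either fraction. The IP part of 0.79 ± 0.22 (adjusted p = 0.00738) and the input part of -0.94 ± 0.22 (adjusted p = 0.00099) add up to a difference of 1.73 ± 0.31 (adjusted p = 0.0033), which lies in both. The call rests on 97 counts in the EMC6 inputs and was lost without the second EMC6 IP library (1.54, adjusted p = 0.11) and in a test against a fold of 1.5 (adjusted p = 0.0838). With scaling on secreted and ER luminal messages its input part was -0.08 and only the IPs were called.

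ASB13 encodes a substrate receptor of a ubiquitin ligase, a protein with no membrane segment (chromosome 10, 5638867 to 5666595). It was near the detection limit in 3 of the 4 groups, with 2.53 and 2.05 CPM in EMC6 inputs, 2.09, 3.30 and 1.88 CPM in EMC10 inputs and 2.41, 3.58 and 0.96 CPM in EMC10 IPs, and reached 86.0 and 73.4 CPM in EMC6 IPs. Behind these values are 13, 31, 7 and 113 counts in the 4 groups. The difference of 5.14 ± 0.65 (adjusted p = 5.27e-06) lies in the IPs, whose part was 5.04 ± 0.40, while the input part was -0.10 ± 0.48 (adjusted p = 0.90).

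LSM4, a component of the ring that binds the tail of U6 small nuclear RNA, and MAP4, a microtubule-associated protein, are cytosolic or nuclear proteins. LSM4 (chromosome 19, 18306236 to 18323076) had 22560 and 30010 CPM in EMC6 inputs and 76220 and 97650 CPM in EMC6 IPs, against 58.9 to 68.3 CPM in EMC10 inputs and 51.8 to 66.3 CPM in EMC10 IPs. MAP4 (chromosome 3, 47850695 to 48088848) had 10360 and 16240 CPM and then 32510 and 43680 CPM in the EMC6 line, against 85.7 to 93.7 CPM and 38.2 to 65.0 CPM in the EMC10 line. Both messages were therefore far higher in the EMC6 line in either fraction. The IP parts were 10.50 ± 0.20 and 9.49 ± 0.23 and the input parts 8.73 ± 0.18 and 7.19 ± 0.20. The differences of 1.77 ± 0.23 for LSM4 (adjusted p = 5.27e-06) and 2.30 ± 0.27 for MAP4 (adjusted p = 1.92e-06) lie in the IPs, against the inputs: the inputs differ in the direction that lowers the difference. With EMC10 the LSM4 message did not rise from input to IP (-0.04), and MAP4 stood at -0.78.

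**Figure D1:**
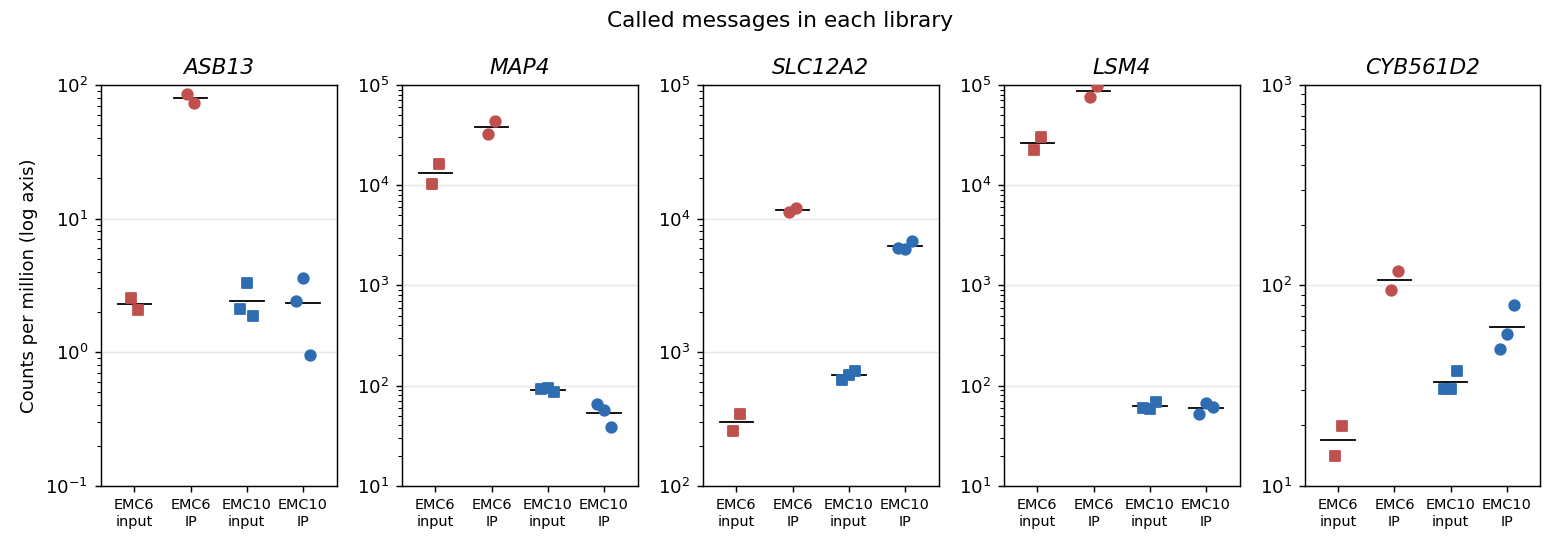
CPM (log axis, a separate scale per panel) of the 5 called messages in each of the 10 libraries; squares are inputs, circles are IPs, and black bars are means (n = 2 for EMC6, n = 3 for EMC10). SLC12A2 and CYB561D2 are lower in EMC6 inputs and higher in EMC6 IPs, ASB13 is high in EMC6 IPs alone, and MAP4 and LSM4 are high in both EMC6 fractions.

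In the rows set apart, the EMC6 message went from 18.4 and 29.1 CPM in EMC6 inputs to 4324 and 4537 CPM in EMC6 IPs, and from 26.4 to 33.0 CPM to 54.2 to 82.2 CPM in the EMC10 line. The difference of 6.44 ± 0.29 lies in the IPs, since the input part was -0.33 ± 0.22 (adjusted p = 0.26). The EMC10 message went from 2270 to 3062 CPM in EMC10 inputs to 383100 to 423300 CPM in EMC10 IPs, and from 92.9 and 60.2 CPM to 129 and 89.8 CPM in the EMC6 line. Its difference of -6.83 ± 0.26 lies in the IPs, against the inputs (parts of -11.90 and -5.07). Tagged and endogenous messages share these counts.

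Several messages came close to the threshold and are given as values, chosen after the values were seen. TMEM179B, a multi-pass protein, stood at 1.17 ± 0.27 (adjusted p = 0.10), from 30.0 and 37.6 to 269 and 182 CPM with EMC6 and from 52.9 to 61.6 CPM to 160 to 168 CPM with EMC10. DEGS2, a sphingolipid hydroxylase and desaturase, stood at 2.12 ± 0.48 (adjusted p = 0.10) on 29 counts in the EMC6 inputs. SFXN4, of the sideroflexin family, stood at 1.02 ± 0.24 (adjusted p = 0.16), and CLN6, an ER protein mutated in a neuronal ceroid lipofuscinosis, at 1.04 ± 0.26 (adjusted p = 0.18). YIPF2 stood at 1.405 (adjusted p = 0.185). RPS6KA5, a kinase, stood at 2.46 (adjusted p = 0.208) and STK11IP at 1.77 (adjusted p = 0.312), and neither is a membrane protein. On the other side YIPF4, a multi-pass Golgi protein, stood at -1.18 ± 0.30 (adjusted p = 0.30): its EMC6 IPs had 41.1 and 111 CPM and its EMC10 IPs 262 to 306 CPM. TMEM179B overlaps TMEM223, DEGS2 overlaps EVL and YIPF2 overlaps CARM1 in the annotation, and whether counting used strand is not given in the sources used here.

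For most genes the interval was too wide to place the difference near 0. The median SE of the difference was 0.453, and the 95% interval lay within 1 log2 unit of 0 for 33.9% of genes tested. This share was 87.5% above 100 CPM and 67.2% from 30 to 100 CPM, but 13.9% from 10 to 30 CPM and 0.196% below 10 CPM. A missing call is therefore informative mainly for abundant messages. The EMC cytosolic subunits EMC8 and EMC9, on 15 and 5 counts in the EMC6 IPs, illustrate the limit, with intervals of -0.87 to 1.35 and -2.73 to 0.90.

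The parts were much more often called than their difference. Of all genes tested, 523 (5.53%) were higher and 1289 (13.6%) lower in EMC6 IPs than in EMC10 IPs, and 1180 (12.5%) were higher and 1929 (20.4%) lower in EMC6 inputs than in EMC10 inputs. The calls lay mostly on the same side: 1200 genes were lower in both fractions, which is 93.1% of those lower in the IPs and 62.2% of those lower in the inputs, and 314 were higher in both, 60.0% and 26.6%. Only 2 genes, SLC12A2 and CYB561D2, were higher in the IPs and lower in the inputs, and 0 the reverse. Across genes the parts correlated at r = 0.68, from separate libraries (IPs for the one, inputs for the other) and with low genes noisy in both. The split of higher and lower calls depends on the scaling: on secreted and luminal messages it was 4128 and 201 for the IPs and 6165 and 308 for the inputs, and by library size alone 3155 and 335, and 2811 and 1362. That scaling on secreted and luminal messages shifted the median of all genes from 0.03 to 0.89 in the IP part and from 0.05 to 0.92 in the input part, whereas the median difference was 0.06 under either scaling. Library size alone moved the median difference to 0.46.

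**Figure D2:**
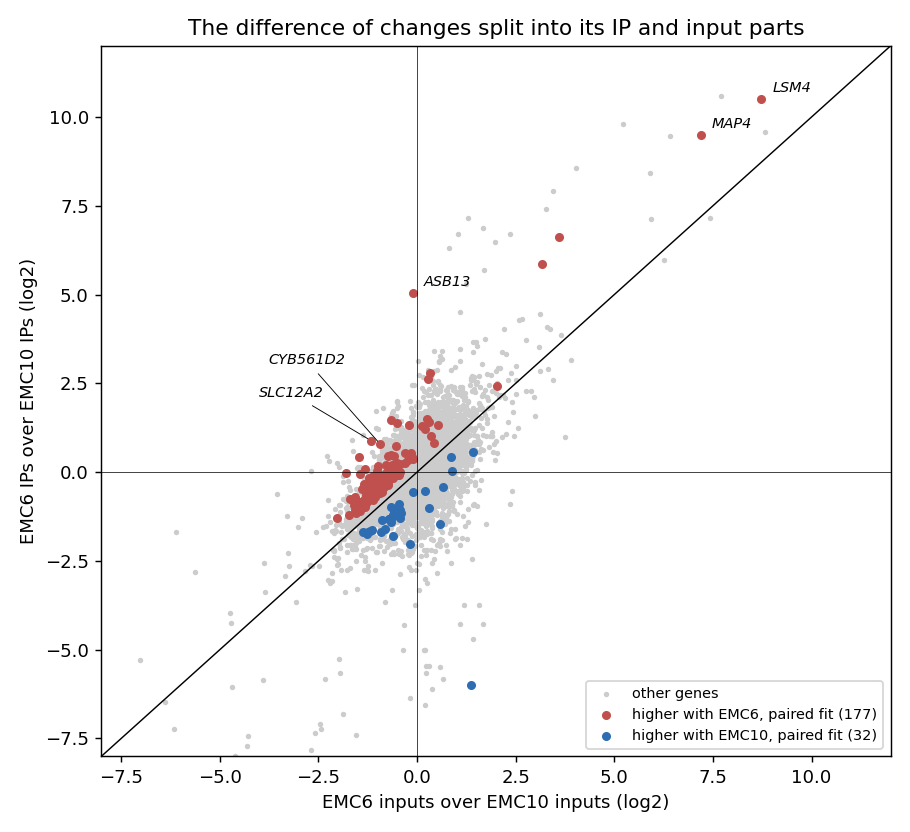
Input part (EMC6 inputs over EMC10 inputs, log2, horizontal) against IP part (EMC6 IPs over EMC10 IPs, log2, vertical) of the genes tested, of which 2 lie outside the axes. On the diagonal line the difference of changes is 0; red points are the 177 messages with a larger change with EMC6 and blue points the 32 with a larger change with EMC10 in the fit that pairs input and IP, and the 5 messages called without pairing are named.

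Messages that differ strongly between the lines in both fractions show how the subtraction works, and these examples were chosen after the values were seen. CDH3, the adhesion protein P-cadherin, had 0.36 and 0.34 CPM in EMC6 inputs and 46.1 to 62.2 CPM in EMC10 inputs, with parts of -5.29 in the IPs and -7.01 in the inputs. ENPP2, the secreted lysophospholipase autotaxin, had 18.4 and 16.8 CPM in EMC6 inputs and 126 to 172 CPM in EMC10 inputs, and its parts of -3.67 and -3.06 left a difference of -0.61 ± 0.38. GALNT13, a Golgi enzyme of O-glycosylation, was higher in the EMC6 line by 3.87 in the IPs and 3.64 in the inputs, and its difference was 0.23 ± 0.80. PCDH19, a protocadherin, was lower by 3.38 and 3.86 (difference 0.49 ± 0.47). None of these 4 differences was called. RASL10B, a small GTPase of the RAS family, was also higher in both EMC6 fractions, at 6.15 and 14.0 CPM in the inputs and 155.2 and 122.7 CPM in the IPs, against 0.23 to 1.32 and 0.90 to 1.91 CPM in the EMC10 line, with a difference of 3.03 ± 0.94 (adjusted p = 0.48, and 0.033 with pairing).

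Pairing input and IP by replicate number raised the count of calls to 177 larger with EMC6 and 32 larger with EMC10, the 5 messages above included. All 177 had every EMC6 pair above every EMC10 pair, as did 17.6% of all genes, and 30 of the 32 had every EMC6 pair below, as did 11.4%. The differences were small: the median was 0.60 on the log2 scale (lowest 0.33) among the 177 and -0.65 among the 32. Of the 177, 159 rose from input to IP with EMC6 and 143 with both baits, in fits where 1665 of all genes (17.6%) rose with EMC6 and 1883 (19.9%) with EMC10. Most are therefore messages enriched by either bait, and more so by EMC6. Of the 32, 13 rose with EMC6 and 24 with EMC10. The paired fit had 4 residual degrees of freedom, against 8 without pairing, and a median prior of 2649, so it rests almost wholly on a spread shared by all genes.

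The number of paired calls moved with single pairs and with scaling. Larger with EMC6 and with EMC10 were 228 and 22 messages without the first EMC6 pair, 88 and 11 without the second, 178 and 20 without the first EMC10 pair, 122 and 38 without the second and 90 and 17 without the third. With LSM4 and MAP4 taken out before scaling they were 455 and 23, and by library size alone 1836 and 9. No message of either set was called in the opposite direction under any of these settings or with DESeq2 (212 and 18).

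With TMM scaling the 177 lay mostly in the inputs: 79 in the inputs alone, 63 in the inputs against the IPs, 12 in the IPs, 6 in the IPs against the inputs, 2 in both and 15 in neither fraction by itself. The median IP part was -0.28 and the median input part -0.94, so the typical message was lower in both EMC6 fractions and lower still in the input. This placement depends on the scaling. With scaling on secreted and luminal messages 92 of the 177 lay in the IPs, 28 in the IPs against the inputs, 35 in the inputs, 1 in the inputs against the IPs, 6 in both and 15 in neither. With library size without the bait rows, 88 lay in the inputs, 34 in the inputs against the IPs and 22 in the IPs. Under these 3 scalings the median difference of all genes was 0.05 to 0.06. Library size alone, which moved that median to 0.46, placed 78 in the inputs, 43 in the IPs and 39 in both.

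The 12 messages placed in the IPs with TMM were ASB13, RPS6KA5, TULP3, DEGS2, SHPK, DLG1, MRPL36, HCN2, PCCA, PLPPR3, LMBRD2 and SLC43A1. Among them LMBRD2, a multi-pass protein, had 477 and 861 CPM in EMC6 IPs against 226 to 301 CPM in EMC10 IPs (difference 0.78 with pairing, IP part 1.32 ± 0.23). The EMC6 inputs of LMBRD2, at 50.3 and 97.2 CPM, overlapped the EMC10 inputs at 45.4 to 54.7 CPM. The 6 in the IPs against the inputs were RASL10B, TAX1BP3, MAP4, LSM4, COL2A1 and H1-2. COL2A1, the collagen of cartilage, was higher in the EMC6 line in either fraction (2252 and 2374 against 558 to 588 CPM in the inputs), with an IP part of 2.43 and an input part of 2.02.

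By class, multi-pass messages more often had the larger change with EMC6. Of 707 tested in the multi-pass lists, 98 were larger with EMC6 and 1 with EMC10 in the paired fit (13.9% and 0.141%, against 1.87% and 0.338% of all genes). Their median difference was 0.30, beside 0.06 for all genes, and 79.9% were above 0, beside 55.3%. Of 270 tested in the single-pass lists, 0 were larger with EMC6 in edgeR's paired fit (5 at an unadjusted p under 0.05 without pairing). With EMC10 8 were larger (2.96%), and the median difference of the single-pass lists was 0.02. These counts depend on the setting: larger with EMC6 and with EMC10 were 75 and 1 by library size alone, 12 and 6 without LSM4 and MAP4, 5 and 7 with DESeq2, and 3 and 5 without the first EMC6 pair. They were 0 and 7 with library size without the bait rows, and 0 and 7 with scaling on secreted and luminal messages. Genes in no list were not sorted by class: 7690 were tested, and 59 of the 177 were among them (0.767%). Single-pass proteins outside the lists are therefore missing from these counts. The median of the multi-pass lists above all genes was 2.27 and 2.25 in the EMC6 pairs and 2.08, 2.00 and 1.99 in the EMC10 pairs. The EMC6 pairs thus stood above the EMC10 pairs without overlap, whereas the pairs overlapped for single-pass messages (0.84 and 0.74 against 1.05, 0.75 and 0.86). Multi-pass messages were not alone in this. The pairs also separated for hairpin messages (reticulon, REEP and atlastin proteins), at 1.24 and 1.28 against 1.09, 1.23 and 1.16. For the machinery lists they stood at 0.80 and 0.73 against 0.65, 0.61 and 0.69.

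The gap between multi-pass and single-pass medians, which no scaling can change, was 1.43 and 1.51 in the EMC6 pairs and 1.035, 1.25 and 1.13 in the EMC10 pairs. Against ER luminal messages the multi-pass gap was 1.75 and 1.73 with EMC6 and 1.49, 1.54 and 1.45 with EMC10. Without pairing, the share of multi-pass messages above 0 was 92.5% without the second EMC6 input (all genes 64.8%), 89.1% without the first EMC6 IP (59.6%), 61.6% without the first EMC6 input (53.4%) and 58.1% without the second EMC6 IP (51.6%). Relative to all genes, multi-pass messages were 0.54 lower in EMC6 IPs and 0.85 lower in EMC6 inputs. Single-pass messages were 0.73 and 0.79 lower and luminal ones 0.98 and 0.97 lower, while cytosolic messages stood at 0.09 and 0.07. The EMC6 inputs thus held a smaller share of all 3 classes of ER-targeted messages relative to other genes. In bulk samples fewer membranes and less message per cell cannot be told apart, and the part that this smaller share has in the results was not tested.

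**Figure D3:**
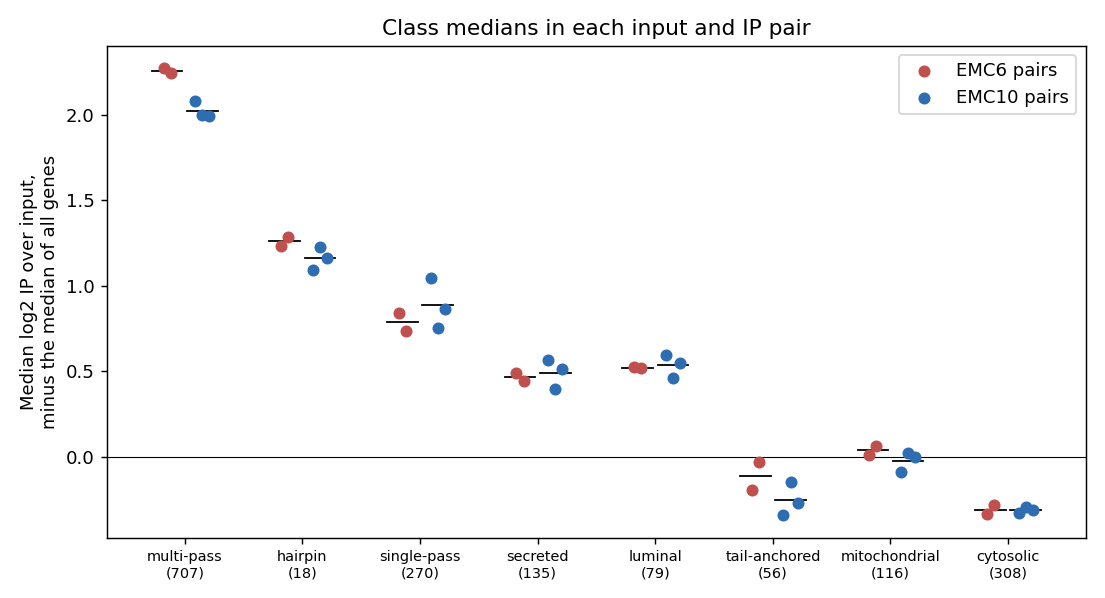
Median log2 ratio of IP to input of each class of gene lists in each pair of libraries, minus the median of all genes in that pair (tested members in parentheses); red points are EMC6 pairs, blue points EMC10 pairs and black bars their means. The 2 EMC6 pairs lie above the 3 EMC10 pairs for multi-pass messages and, by less, for hairpin messages, and overlap them for single-pass, secreted and luminal messages.

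**Figure D4:**
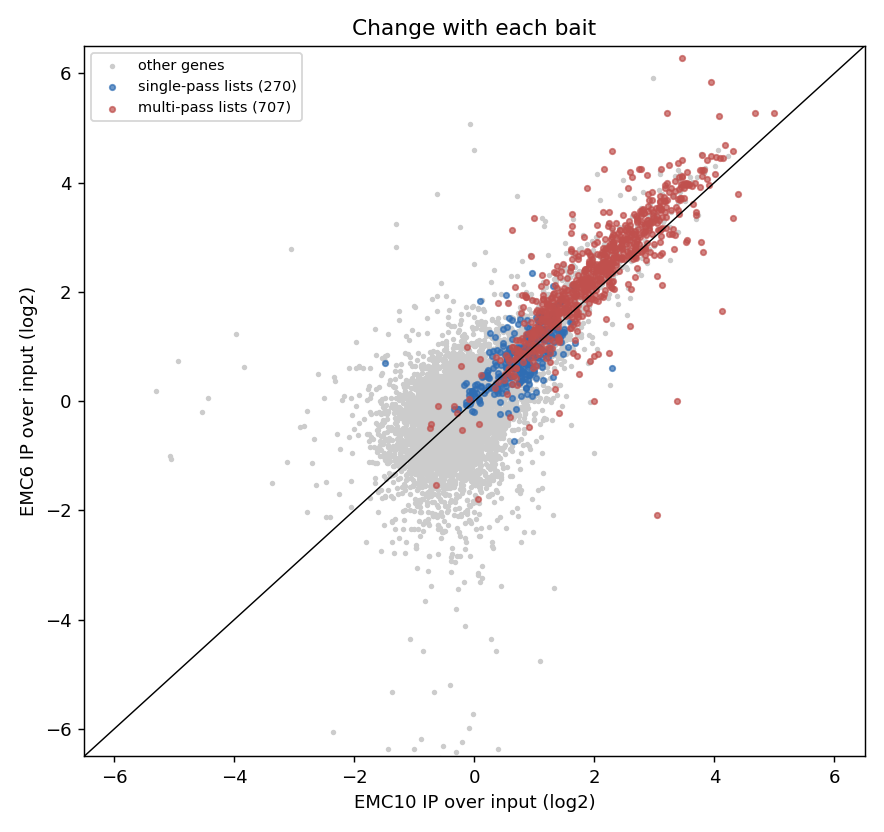
Change with EMC10 (log2 IP over input, horizontal) against change with EMC6 (vertical) of the genes tested, with the 707 multi-pass messages in red and the 270 single-pass messages in blue; 8 genes lie outside the axes. Multi-pass messages are enriched with either bait and 79.9% lie above the diagonal.

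Solute carriers, the transporters of ions, sugars, amino acids and nucleosides, gave 39 of 180 tested members larger with EMC6 in the paired fit (21.7%) and 0 larger with EMC10 (38 and 1 at an unadjusted p under 0.05 in edgeR without pairing). Their median difference was 0.43, and 155 of the 180 were above 0. SLC2A1, the glucose transporter GLUT1, had 236 and 321 CPM in EMC6 inputs and 925 and 1099 CPM in EMC6 IPs, against 606 to 715 CPM and 1412 to 1514 CPM with EMC10. With TMM scaling the lines did not overlap in either fraction, and EMC6 was the lower in both. Placements of single messages in this and later paragraphs are those with TMM. With scaling on secreted and luminal messages 1 of the 177 lay in the inputs against the IPs. The paired difference of SLC2A1 was 0.72 ± 0.11 (adjusted p = 1.11e-08), in the inputs against the IPs (parts of -0.52 and -1.24). SLC29A1, the nucleoside transporter ENT1, stood at 0.66 ± 0.10 and SLC16A1, the monocarboxylate transporter MCT1, at 0.44 ± 0.09, both likewise in the inputs against the IPs. SLC35B2, which brings the sulfate donor into the Golgi, stood at 0.88 ± 0.17.

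Within the cation-chloride cotransporters, SLC12A2 was the only one of the 6 members tested that was called without pairing. The K-Cl cotransporter SLC12A4 stood at 0.56 ± 0.14 (adjusted p = 0.0065) in the paired fit, with neither fraction called alone. SLC12A9 stood at 0.34 (adjusted p = 0.26), SLC12A5, on 5 counts in the EMC6 inputs, at 1.99 (adjusted p = 0.34) and SLC12A7 at -0.97 (adjusted p = 0.80). SLC12A4 had 39.4 and 78.7 CPM in EMC6 inputs against 79.1 to 101 CPM in EMC10 inputs, and its IPs, at 406 and 728 CPM against 503 to 673 CPM, overlapped.

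Lipid and sterol enzymes of the ER, which build membranes and cholesterol, gave 19 of 71 larger with EMC6 (26.8%) and 0 larger with EMC10 (17 and 1 at an unadjusted p under 0.05 in edgeR without pairing), with a median difference of 0.36. DHCR7, the last enzyme of one branch of cholesterol synthesis, had 339 and 368 CPM in EMC6 inputs against 609 to 739 CPM in EMC10 inputs, whereas its IPs were closer (3285 and 3287 against 3610 to 4037 CPM). The groups of DHCR7 did not overlap in either fraction. Its paired difference of 0.71 ± 0.10 (adjusted p = 9.09e-10) lies in the inputs (IP part -0.19, adjusted p = 0.38). ICMT, which methylates prenylated proteins, stood at 0.88 ± 0.13 in the inputs, PTDSS1, a phosphatidylserine synthase, at 0.55 ± 0.11 and SGPP2, a sphingosine phosphate phosphatase, at 0.91 ± 0.19, the last 2 in the inputs against the IPs. The list of SREBP targets, the genes that respond to low sterol, gave 4 of 25 larger with EMC6, DHCR7 and SCD among them.

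P-type ATPases, the ion pumps and lipid flippases, gave 7 of 27 larger with EMC6 (25.9%), with a median difference of 0.33 and 22 of the 27 above 0. Over all genes that median was 0.27, and it was -0.02 without the second EMC6 IP library, 0.03 without the first EMC6 input, 0.40 without the first EMC6 IP and 0.53 without the second EMC6 input. Ion channels gave 7 of 97 (7.22%). PIEZO1, a mechanically gated channel, stood at 0.50 ± 0.10 with neither fraction called alone (parts of 0.38 and -0.11), and CACNA1B, a calcium channel subunit, at 1.85 ± 0.47 on 11 counts in the EMC6 inputs. ABC transporters gave 3 of 24, among them ABCC4, which exports cyclic nucleotides, at 0.43 ± 0.10 in the inputs. Class A G protein-coupled receptors, among which some N-terminal helices are known EMC substrates, gave 1 of 29 (3.45%, against 1.87% of all genes). This was GPR37, at 1.01 ± 0.24, called in 9 of the 11 other paired settings. The median difference of these receptors, 0.34, was nevertheless above that of all genes, with 25 of 29 above 0.

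Among the other membrane lists, membrane proteins of ER-associated degradation gave 6 of 38 larger with EMC6 (15.8%) and cargo receptors and YIPF proteins 4 of 31 (12.9%). Tetraspanins, claudins, connexins and synaptogyrins gave 3 of 56 (5.36%). Enzymes of GPI anchors and N-glycan precursors gave 1 of 47 (2.13%), near the 1.87% of all genes. Tail-anchored messages, another known class of EMC clients that is inserted after translation, gave 0 of 56 in either direction in edgeR's paired fit (1 and 0 at an unadjusted p under 0.05 without pairing), with a median difference of -0.02. Ribosomal proteins gave 0 of 80 larger with EMC6 and 1 with EMC10. The 97 type II Golgi enzymes gave 0 in either direction (in the paired fit of edgeR), and 4 and 3 at an unadjusted p under 0.05 without pairing.

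Messages of the translocation machinery were part of the same set. STT3A, the catalytic subunit of the oligosaccharyltransferase that acts during translocation, had 647 and 735 CPM in EMC6 inputs and 12270 and 11380 CPM in EMC6 IPs, against 1431 to 1835 CPM and 18360 to 20790 CPM with EMC10. With TMM scaling it was lower in both EMC6 fractions, without overlap. The paired difference of 0.50 ± 0.09 (adjusted p = 1.62e-05) lies in the inputs against the IPs under this scaling. SEC61A1, the channel subunit of the translocon, stood at 0.41 ± 0.10 and TMEM147, a subunit of the multi-pass translocon, at 0.57 ± 0.12. In all, 3 of 12 oligosaccharyltransferase messages (25%) were larger with EMC6, against 1.87% of all genes. So were 4 of 25 of the list of Sec61, TRAP, SRP receptor and signal peptidase (16%). The list of PAT, GEL and BOS subunits gave 1 of 7 (14.3%). In the 11 other paired settings STT3A and TMEM147 kept their call in 11, SEC61A1 in 9 and SEC61A2 in 5. SEC61A1 overlaps RUVBL1 in the annotation.

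The list of secreted and matrix proteins gave 6 of 135 larger with EMC6 (4.44%, against 1.87% of all genes). Of these, 5 encode collagen chains (COL2A1, COL4A1, COL4A2, COL4A5 and COL4A6) and 1 the lysosomal lipase LIPA. It gave 1 larger with EMC10, the lysosomal enzyme GUSB (0.741%, against 0.338%). The list is not complete. Outside it COL4A4 was called at 0.51, and SPON1 and PCSK6 at -0.47 and -0.62. These kept their calls in 3, 3 and 8 of the 11 other paired settings. COL4A1, a chain of basement membrane collagen, had 846 and 1240 CPM in EMC6 inputs and 1163 and 1523 CPM in EMC6 IPs, against 1202 to 1348 CPM and 1035 to 1187 CPM with EMC10. Its inputs overlapped in range, and so did its IPs. The change was 0.37 with EMC6 and -0.21 with EMC10, and the paired difference of 0.58 ± 0.10 was called with neither fraction alone. The median difference of secreted messages was 0.00, and that of luminal messages, with 3 of 79 larger with EMC6 and 2 larger with EMC10, was 0.06.

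On the EMC10 side, 8 of the 32 messages were in the single-pass lists and 17 in no list. These are 2.96% of 270 and 0.221% of 7690 tested, against 0.338% of all genes. Genes in no list were not sorted by class, and PIGK, described below, is among them. The 8 messages of the single-pass lists were the giant cadherins FAT1, FAT3 and FAT4, the desmosomal cadherin DSG2, the integrin subunit ITGA6, the receptor tyrosine kinase MET and the endocytic receptors IGF2R and LRP1B. In the 11 other paired settings FAT4 kept its call in 11, FAT3 in 10, FAT1 in 9, ITGA6 and IGF2R in 8, DSG2 in 7, MET in 5 and LRP1B in 3, all with the same sign. FAT4 had 95.8 and 121 CPM in EMC6 inputs and 105 and 136 CPM in EMC6 IPs, against 131 to 164 CPM and 269 to 325 CPM with EMC10. The IPs of FAT4 separated by more than the inputs did: from input to IP it changed by 0.17 with EMC6 and by 1.02 with EMC10. Its paired difference of -0.87 ± 0.16 (adjusted p = 3.46e-05) lies in the IPs, against the inputs, as did 20 of the 32. FAT1 and FAT3 stood at -0.50 ± 0.10 and -0.78 ± 0.14.

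PIGK, the catalytic subunit of the GPI transamidase and a single-pass protein that is in none of the lists, behaved likewise, with 185 and 219 CPM in EMC6 IPs, 548 to 697 CPM in EMC10 IPs and a paired difference of -0.79 ± 0.13. GUSB stood at -0.77 ± 0.14 and NUP210, a nuclear pore membrane protein with a large luminal domain, at -0.54 ± 0.10. CALR, the luminal chaperone calreticulin, stood at -0.34 ± 0.09, but was called in 4 of the 11 other paired settings and ran from -0.42 to 0.08 over them. The remaining multi-pass message was YIPF4, at -1.21 ± 0.20 with pairing, whose EMC6 pairs differed from each other (-0.06 and 1.03) but lay below the EMC10 pairs (2.00, 1.83 and 1.89). Of the 32, 6 were in the IPs, 5 in the inputs and 1 in neither. One of them, ZNF12, had 0 counts in both EMC6 IPs and 10 counts in all in the EMC10 IPs, and no fold is given for it. Others of the 32 encode cytosolic or nuclear proteins, some with differences further from 0 than the median of -0.65. EYA4 stood at -2.08, PPP1R7 at -1.88, SMARCAD1 at -1.35, CDK5RAP2 at -1.13, H2BC12 at -0.88 and SUMO2 at -0.85. In this order they kept their calls in 7, 6, 5, 5, 4 and 6 of the 11 other paired settings. With scaling on secreted and luminal messages 10 of the 32 lay in the IPs, 10 in the inputs and 3 in the IPs against the inputs.

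Among the 8 EMC subunits other than the baits of these lines, no difference was called without pairing. EMC3, the membrane subunit of the insertase that resembles Oxa1, had 145 and 154 CPM in EMC6 inputs and 1812 and 1362 CPM in EMC6 IPs, against 214 to 274 CPM and 2997 to 3317 CPM with EMC10. With TMM scaling it was lower in both EMC6 fractions, and its difference of -0.33 ± 0.22 (adjusted p = 0.84) was -0.35 ± 0.11 with pairing (adjusted p = 0.048). That paired call of EMC3 was kept in 3 of 11 other paired settings, whose values ran from -0.49 to 0.07, with the sign turned by library size alone. EMC4, another subunit at the membrane, stood at 0.17 ± 0.22, and EMC1, the large subunit with luminal propellers, at 0.13 ± 0.21, although its parts were -1.03 and -1.17. EMC7, with a luminal domain, stood at 0.36 ± 0.31 and MMGT1 (EMC5), of the membrane core, at 0.56 ± 0.32. EMC2 and EMC8, on the cytosolic side, stood at 0.15 ± 0.55 and 0.24 ± 0.55, and EMC9, the paralog of EMC8, at -0.92 ± 0.89. With TMM scaling the EMC6 inputs held less EMC1, EMC3, EMC4, EMC7 and MMGT1 message than the EMC10 inputs and more EMC2 message. The input parts were -1.17, -0.65, -0.53, -1.16, -0.80 and 0.73 (each with an adjusted p under 0.05 in edgeR without pairing). Such directions depend on the scaling. Of 59 messages of the machinery lists, EMC subunits included, 6 were higher and 41 lower in EMC6 inputs with TMM. With scaling on secreted and luminal messages 14 were higher and 11 lower. The EMC8 and EMC9 inputs did not pass (adjusted p = 0.24 and 0.29).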

How the data were processed

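Ribosome footprints were counted in inputs and IPs of 3 HEK293 lines, of which the EMC6 and EMC10 lines are compared here. For every library the authors deposited a table of raw counts by gene symbol. The submitters' processing notes name hg38, TopHat2 2.1.0, Bowtie2 2.2.6 and cutadapt 4.1. No annotation, strand setting or duplicate removal was found (not given in the sources used here), and PCR duplicates may remain. The 5 rows that name no gene held 9.28% to 12.5% of the reads in EMC6 libraries and 2.83% to 5.15% in EMC10 libraries and were left out. Of 19440 symbols 18968 matched RefSeq's GRCh38 table, used for positions.

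All 14 libraries entered edgeR 4.0.16 (limma 3.58.1, R 4.3.3): filterByExpr, TMM factors, group means, robust quasi-likelihood tests, Benjamini-Hochberg adjustment over all genes. A difference was placed by the called signs of its parts. TMM assumes that most genes do not differ, and IP against input may break this. Values in single pairs are log2 CPM ratios with a prior count of 2. Whether replicates are separate cultures is not said in the labels, and each p-value then covers only the spread of these samples, possibly a technical one. Counts of replicates differed beyond sampling noise, with chi-square values of 1.91 to 7.74 per degree of freedom. The steps were tested on simulated data.

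Pairing comes from the labels' batch tag, a replicate number that 1 input and 1 IP of a line share; that a given IP was made from that input is not stated for single libraries. Deviations from group means of same-numbered libraries correlated at 0.27 in the EMC6 line and at 0.041, 0.095 and 0.079 in the EMC10 line, all under 0.1, where each input correlated best with its own IP. The blocked fit has a term per pair. Alternatives were DESeq2 1.42.0, other scalings, filters and libraries left out.

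The comparison and the 39 gene lists, some assigned by symbol pattern, were chosen with earlier results of these data known. The rule named the 12 largest called messages per direction with a mean of at least 10 CPM in a group and separate pairs, 6 more per placement, 2 per list and the EMC subunits. It named the 5 called messages and the EMC subunits; other genes in the text were chosen after their values were seen. Some results are not reported here.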

Additional observations from a re-analysis of the deposited data

Results flagged for a closer look

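The messages whose change differed between the baits by the test of the difference itself are those of the main comparison: ASB13 (5.14, adjusted p = 5.27e-06), MAP4 (2.30, adjusted p = 1.92e-06), SLC12A2 (2.06, adjusted p = 2.37e-08), LSM4 (1.77, adjusted p = 5.27e-06) and CYB561D2 (1.73, adjusted p = 0.0033), with the bait rows EMC6 (6.44, adjusted p = 1.87e-18) and EMC10 (-6.83, adjusted p = 4.93e-20). For SLC12A2, CYB561D2, ASB13, LSM4 and MAP4 every EMC6 pair lay above every EMC10 pair. Groups of 2 and 3 libraries are too small for a test of outlying samples.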

How the results depend on the processing

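The 5 calls kept their direction in every setting that gave them a value, and CYB561D2 lost its call in 2. SLC12A2, LSM4 and MAP4 stayed called throughout (without LSM4 and MAP4 they have no value), and DESeq2 gave no adjusted p for ASB13 and CYB561D2. Larger with EMC6 were 492 messages by library size alone, 8 without a filter (DEGS2, TMEM179B and YIPF2 added), 177 with a replicate block and 5 to 225 with 1 library left out; larger with EMC10 were 1 without a filter, 32 with the replicate block and 0 to 1. The placements of the calls were, in the IPs, 0 with DESeq2, 144 by library size, 3 on secreted and luminal messages, 2 without a filter and 1 to 24 with 1 library left out. In the inputs they were 4, 230, 0, 2 and 0 to 153, and 1 against a fold of 1.5. In both they were 1, 54, 1, 2 and 2 to 8, and 0 against that fold. In the IPs against the inputs there were 34 by library size, 0 without LSM4 and MAP4 and 2 to 3 with 1 library left out; in the inputs against the IPs 28 and 0 to 36; in neither 2 and 0 to 1. The median of the multi-pass lists above all genes was 0.0753 to 0.484 with 1 library left out, and that of the single-pass lists -0.27 to 0.25.

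In the paired fit, with alternatives chosen after the data were seen, larger with EMC6 were 1836 by library size, 455 without LSM4 and MAP4 and 88 to 228 with 1 pair left out. Larger with EMC10 were 9 by library size, 18 with DESeq2 and 11 to 38. Solute carriers among them were 114, 68 and 17 to 37, multi-pass messages 387, 185 and 48 to 98, and single-pass messages larger with EMC10 were 1 by library size and 2 to 13. Among uncalled EMC subunits the sign turned for EMC3 by library size (0.0916), and with 1 library left out the values ran from -0.0482 to 0.421 for EMC1, -0.235 to 0.686 for EMC2, -0.307 to 0.922 for EMC7, -0.228 to 0.588 for EMC8 and -2.43 to 0.162 for EMC9. With library size without the bait rows, larger with EMC6 and with EMC10 in the paired fit were 145 and 26 messages. The cause of these shifts was not tested. The planned medians by predicted membrane segments were not run, since they need protein sequences not used here.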

Other observations

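SPEG, a kinase of striated muscle, was among the messages that set the EMC6 line apart: 196 and 188 CPM in its inputs and 636 and 564 CPM in its IPs, against 0.44 to 1.34 CPM in EMC10 inputs and at most 0.90 CPM in EMC10 IPs. Its IP part was 10.59 and its input part 7.69, and the difference of 2.90 ± 1.08 was not called (adjusted p = 0.69, and 0.18 with pairing). ATP2B3, a plasma membrane calcium pump, and NALCN, a sodium leak channel, were higher in the EMC10 line, with 11.8 to 17.2 and 8.35 to 12.8 CPM in EMC10 inputs and at most 0.72 CPM in EMC6 inputs. In EMC6 IPs ATP2B3 had 0 and 9.86 CPM and NALCN 0 and 1.09 CPM. Their differences of 0.76 ± 0.96 and -1.37 ± 1.92 cannot be placed at these depths.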
